A study of Arabidopsis thaliana with 39 samples.

Results

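Beta-glucosidases are enzymes that cleave a glucose unit from a plant metabolite. Every gene named BGLU followed by a number in the probe table of the Arabidopsis ATH1 array was taken, together with NAI2, which gave 20 BGLU genes and NAI2, 21 of the 13356 genes that the table names singly. Each of the 21 had 1 probe set. A further probe set carries the names of 2 beta-glucosidase genes, BGLU21 and BGLU22, which could not be told apart there, so it was not used here. Of the 21 genes, 8 had a mean log2 signal over all arrays above the filter level of 5.69 (BGLU15, BGLU16, BGLU25, BGLU40, BGLU42, BGLU46, BGLU47 and NAI2), and the other 13 were below it.

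The study profiled RNA from individually dissected roots of Arabidopsis thaliana, ecotype Columbia, 5 days after germination on standard medium. All 39 arrays came from DR5-GUS, a line carrying an auxin-responsive reporter, so both regions share it. The tissue was the oscillation zone, a stretch of the root tip in which the submitters looked for periodic expression, cut into 2 regions named OZ1 (20 arrays) and OZ2 (19 arrays). The labels disagree on which of the regions lies lower, so the names alone are used. Each array also has a place from 1 to 39 in the order they used for this, with OZ1 at places 1 to 20 and OZ2 at 21 to 39. The labels do not say how the order was obtained, so a pattern along it may not be independent of these arrays.

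Plants store many defence compounds, hormones and cell wall precursors as glucosides, which are inactive or soluble until a beta-glucosidase removes the sugar. Members of the family therefore act in quite different processes: BGLU45 and BGLU46 hydrolyse the glucosides of monolignols, the building blocks of lignin, BGLU42 releases coumarins in roots, BGLU15 takes part in flavonol glucoside breakdown, and BGLU33 frees abscisic acid from its glucose ester. In the Brassicaceae some root beta-glucosidases, above all PYK10, are packed into ER bodies, spindle-shaped extensions of the endoplasmic reticulum. NAI2 is needed to form these bodies and to accumulate PYK10 in them, and the transcription factor NAI1 switches their genes on.

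The arrays were scanned on 3 days. Day 1 held 12 arrays of OZ1 and 10 of OZ2, day 2 held 8 of OZ1 and day 3 held 9 of OZ2, so day 1 alone allows a comparison within a day. A fit blocked on scan day therefore takes its region difference from the day 1 arrays, and the other days add only to its estimate of spread. Across tested probe sets 6 arrays lay nearer the mean of the other region, OZ1-2, OZ1-3, OZ1-6, OZ1-10, OZ2-32 and OZ2-38, and 5 of them were scanned on day 1. Since these 6 were picked on the difference between the regions itself, leaving them out widens that difference by construction, and values without them are given as descriptions that restore or support no call. Markers of root hairs (2 of 5 listed genes measured), dividing cells (2 of 7) and green tissue (2 of 6) also differed between the regions, and all 6 measured markers passed the limma region test described below, as 29% of all tested probe sets did. The marker lists were chosen with earlier results of these data known, so this count is a description. After blocking on scan day EXPA18 alone of the 6 passed (adjusted p = 0.0026), the other adjusted p-values running from 0.0659 to 0.285. The summed signal of EXPA7 and EXPA18, expansins of root hairs, was 47.0 to 6057 (median 207.6) in OZ1 and 150.4 to 16850 (median 7570) in OZ2. That of AUR1 and BUB3.1, which act in mitosis, was 104.2 to 906.4 (median 459.4) in OZ1 and 47.6 to 1179 (median 194.7) in OZ2. That of LHCB4.1 and PSBY, photosystem proteins, was 69.7 to 1249 (median 191.7) in OZ1 and 72.4 to 1270 (median 709.8) in OZ2. None of these 6 markers was at 0, no listed marker of endodermis or xylem was named on a probe set of its own (8730 of the 22810 probe sets are unnamed in the table used), and the part of cell composition in the differences below was not tested. In whole tissue a smaller share of a cell type cannot be told apart from less RNA per cell.

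The first comparison asked which of the genes differed between OZ1 and OZ2. BGLU46, BGLU47 and BGLU15 were higher in OZ2, by 5.83-, 4.76- and 2.38-fold, and BGLU42 and NAI2 were lower there, by 2.64- and 2.50-fold. BGLU40, BGLU16 and BGLU25 did not pass the test. These are limma tests on the log2 signal, with p-values adjusted over all 13627 probe sets above the filter level and a threshold of 0.05. Among those probe sets the same 29% passed, 13.3% higher and 15.6% lower in OZ2. The 8 genes reached the filter through a mean over both regions, and BGLU40, BGLU46 and BGLU47 had OZ1 means below its level, so the count among them is given as an account of the genes. With no filter all 21 genes were tested and the 5 named genes again passed, 3 higher and 2 lower, where 17.1% of 22746 probe sets did. After blocking on scan day BGLU46 and BGLU47 were higher and NAI2 was lower, beside 4.56% of probe sets higher and 6.71% lower. On scan day 1 alone 2 genes passed, BGLU46 and NAI2, beside 5.88%. The log2 differences of the 8 genes were the same as with the block, so this is not a second, separate result. The median log2 difference over all 21 genes was 0.37, and over all tested probe sets it was -0.095.

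**Figure D1:**
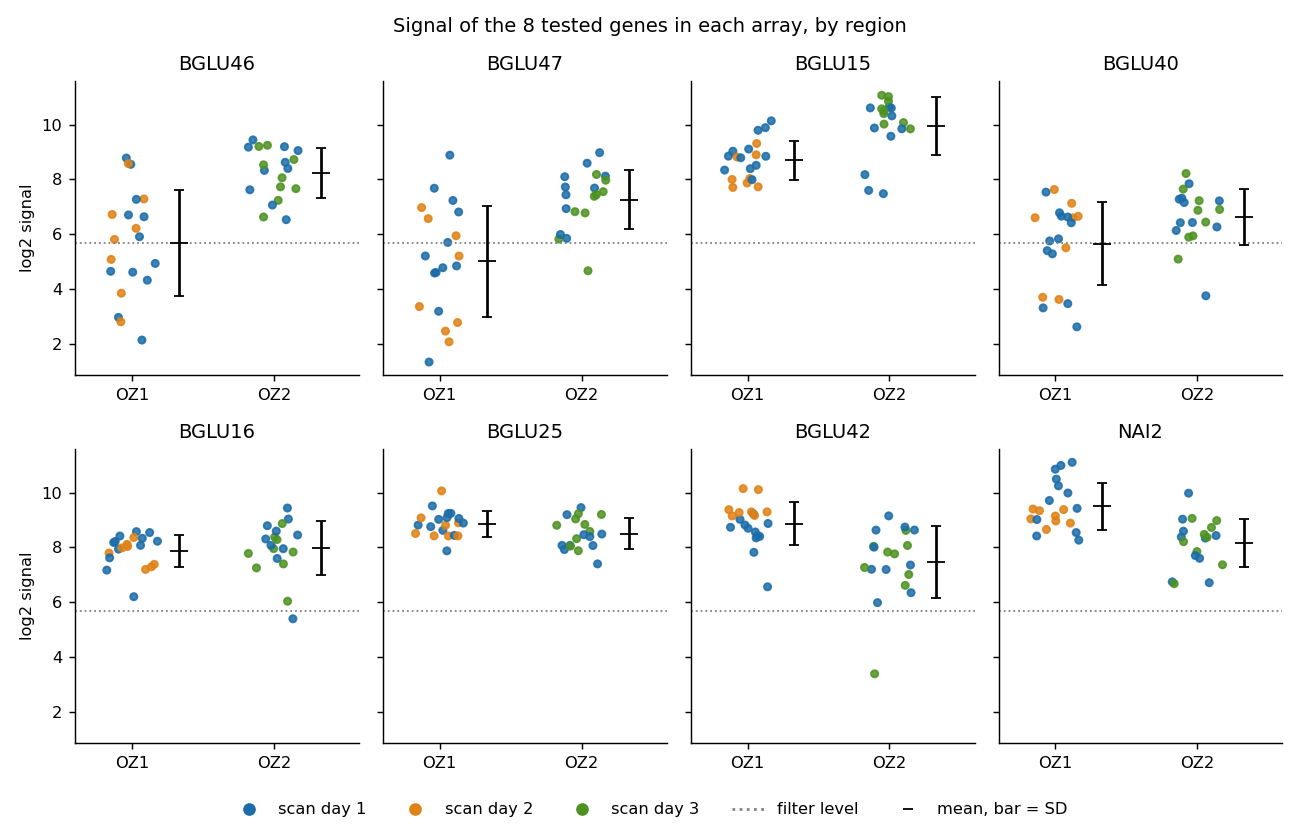
Log2 signal (vertical axis) of the 8 genes above the filter level in the 20 arrays of OZ1 and the 19 of OZ2; a point is an array, coloured by scan day, the bar is the mean with its SD, and the dotted line is the filter level of 5.69. BGLU46 was above that level in all 19 OZ2 arrays and in 11 of the 20 OZ1 arrays, while NAI2 was above it in every array and lower in OZ2.

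Of the genes for lignin precursors, BGLU46 had log2 signals from 2.14 to 8.78 with a median of 5.86 in OZ1, and from 6.53 to 9.44 with a median of 8.40 in OZ2. All 19 OZ2 arrays were above the OZ1 median and 6 were above the highest OZ1 array, so the regions overlapped mainly through the upper OZ1 arrays. The log2 difference was 2.54 ± 0.46 (SE; limma adjusted p = 5.58e-05). The 3 highest OZ1 arrays were OZ1-10 at 8.78, OZ1-3 at 8.58 and OZ1-6 at 8.55, all among the 6 arrays named above. Without those 6 arrays the log2 difference of BGLU46 was 3.25, a larger value that their selection brings with it. Within scan day 1 the mean was 5.63 ± 2.06 (SD, n = 12) in OZ1 and 8.34 ± 0.98 (SD, n = 10) in OZ2, a log2 difference of 2.72 (limma adjusted p = 0.0179). The SD of BGLU46 was 1.94 in OZ1 and 0.92 in OZ2.

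BGLU47 belongs to the same small branch of the family as BGLU45 and BGLU46. Its log2 signal ran from 1.34 to 8.89 with a median of 5.03 in OZ1 and from 4.67 to 8.98 with a median of 7.44 in OZ2. It was above the filter level in 8 of 20 OZ1 arrays and in 18 of 19 OZ2 arrays, and 18 OZ2 arrays were above the OZ1 median. The log2 difference was 2.25 ± 0.50 (SE; limma adjusted p = 0.000657), and after blocking on scan day it was 2.14 (adjusted p = 0.0316). On day 1 alone the same difference of 2.14 had an adjusted p of 0.053. Since the OZ1 means of BGLU46 and BGLU47 (5.69 and 5.01) lay at or below the filter level, the size of their differences is uncertain. With log2(value + 16) BGLU47 was 2.99-fold higher in place of 4.76-fold, and BGLU46 4.07-fold in place of 5.83-fold. Array weights, which do not bear on low signal, gave 10.1-fold for BGLU46. Such weights count an array less the further it lies from its own region mean, which can widen the difference. Without the 6 arrays nearer the other region BGLU46 was 9.50-fold higher. BGLU45, the chromosomal neighbour of BGLU46, was below the filter level, with log2 medians of 5.06 in OZ1 and 4.51 in OZ2. It was above the filter level in 8 OZ1 and 6 OZ2 arrays, and without the filter its log2 difference was -0.19 ± 0.54 (SE; limma adjusted p = 0.878).

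The lignin list held 17 other genes of the pathway, of which 4 were named on a probe set of their own, 2 were above the filter level and 1 rose, beside 13.3% of all tested probe sets. HCT, an acyltransferase of the monolignol route, had log2 medians of 9.05 in OZ1 and 11.95 in OZ2. It rose by 1.98 ± 0.36 (SE; limma adjusted p = 4.94e-05), and by 1.55 after blocking on scan day (adjusted p = 0.0283). UGT72E2, which makes the monolignol glucosides, had a log2 difference of 0.24 ± 0.22 (SE; adjusted p = 0.447). UGT72E1 and UGT72E3 were below the filter level and not tested. Their log2 medians were 3.98 and 4.22 in OZ1, and 4.25 and 7.18 in OZ2.

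BGLU15, of flavonol glucoside breakdown, had log2 signals from 7.71 to 10.14 with a median of 8.80 in OZ1 and from 7.48 to 11.07 with a median of 10.32 in OZ2. Of the 19 OZ2 arrays 10 were above the highest OZ1 array, and the 3 below the OZ1 median were OZ2-9 at 7.48, OZ2-38 at 7.60 and OZ2-10 at 8.18. The 3 highest OZ1 arrays were OZ1-6 at 10.14, OZ1-2 at 9.89 and OZ1-10 at 9.79, all among the 6 arrays nearer the other region. These low OZ2 and high OZ1 arrays were all scanned on day 1, and their part in the day means below was not tested. The log2 difference was 1.25 ± 0.28 (SE; limma adjusted p = 0.000718). It moved with the scan day: the OZ1 means were 8.97 on day 1 and 8.30 on day 2, the OZ2 means 9.47 on day 1 and 10.48 on day 3, and after blocking on scan day the log2 difference was 0.50 (adjusted p = 0.384). The call was thus lost with the block. Leaving out the 6 arrays as well gave 1.04, a value biased upwards by how they were picked. BGLU15 lies on chromosome 2 in a row with BGLU28 and BGLU29, both below the filter level, with log2 means of 5.35 and 4.80 in OZ1 and of 4.86 and 5.63 in OZ2. BGLU28, which is induced by sulfur shortage, had a log2 difference of -0.49 ± 0.56 (SE), and BGLU29 one of 0.83 ± 0.51 (SE), with adjusted p-values of 0.646 and 0.314 by limma without the filter.

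BGLU42, which releases coumarins in roots, had log2 signals from 6.56 to 10.14 with a median of 8.94 in OZ1, and from 3.39 to 9.15 with a median of 7.76 in OZ2. Of the 19 OZ2 arrays 18 were below the OZ1 median and 3 below the lowest OZ1 array, and the lowest value of all was that of OZ2-36. The log2 difference was -1.40 ± 0.33 (SE; limma adjusted p = 0.00119). It too moved with the scan day, with OZ1 means of 8.45 on day 1 and 9.47 on day 2 and OZ2 means of 7.72 on day 1 and 7.18 on day 3. After blocking on scan day the log2 difference was -0.73 (adjusted p = 0.276), so the call was lost. Leaving out the 6 arrays as well gave -1.26, which is biased away from 0 in the same way.

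Of the 7 listed genes of coumarin synthesis and export 3 were named on a probe set of their own and 2 were above the filter level. Both of those rose in OZ2, beside 13.3% of all tested probe sets. F6'H1, the hydroxylase that commits the pathway to scopoletin, had log2 signals from 2.41 to 8.49 with a median of 4.93 in OZ1, and from 5.71 to 9.95 with a median of 8.46 in OZ2. Its log2 difference was 3.29 ± 0.49 (SE; limma adjusted p = 3.47e-06), and 3.24 after blocking on scan day (adjusted p = 0.00166). Its OZ1 mean of 4.99 was below the filter level, which it passed through OZ2, so the size of this difference is uncertain too. COSY, the coumarin synthase that follows it, rose by 1.19 ± 0.26 (SE; adjusted p = 0.000454). After blocking on scan day the log2 difference of COSY was 1.02, with an adjusted p of 0.0495, close to the threshold.

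NAI2, of the ER bodies, had log2 signals from 8.26 to 11.10 with a median of 9.36 in OZ1 and from 6.67 to 9.98 with a median of 8.37 in OZ2. Of the OZ2 arrays 8 were below the lowest OZ1 array, and OZ2-38 at 9.98 was the single one above the OZ1 median. The log2 difference was -1.32 ± 0.28 (SE; limma adjusted p = 0.000277), and after blocking on scan day it was -1.60 (adjusted p = 0.00363). On day 1 the means were 9.75 ± 1.02 (SD, n = 12) in OZ1 and 8.15 ± 1.00 (SD, n = 10) in OZ2 (limma adjusted p = 0.0234).

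Of 15 listed ER body genes outside the BGLU and NAI2 names, 6 were named on a probe set of their own and 4 were above the filter level, of which 1 fell in OZ2, where 15.6% of all tested probe sets did, and none rose. The gene that fell was JAL34, a jacalin-related lectin of the PYK10 complex. Its log2 signals ran from 10.00 to 13.92 (median 12.59) in OZ1 and from 8.64 to 12.82 (median 11.09) in OZ2. The log2 difference of JAL34 was -1.32 ± 0.31 (SE; limma adjusted p = 0.000965), and -1.39 after blocking on scan day (adjusted p = 0.0204). PYK10, the main ER body beta-glucosidase of roots, had medians of 10.87 in OZ1 and 10.07 in OZ2 and a log2 difference of -0.79 ± 0.33 (SE; adjusted p = 0.0646), which did not pass. The remaining genes above the filter level, NAI1 and the lectin gene JAL33, had adjusted p-values of 0.601 and 0.383. Of the 11 listed genes of indole glucosinolate synthesis, whose products PYK10 can cleave, UGT74B1 alone was named on a probe set of its own, with a log2 difference of 0.47 ± 0.31 (SE; adjusted p = 0.268). No listed myrosinase or abscisic acid gene was named on a probe set of its own, and whether unnamed probe sets measure them is not known here.

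BGLU40, BGLU16 and BGLU25 were measured above the filter level and did not pass. BGLU40 had log2 medians of 6.13 in OZ1 and 6.88 in OZ2, and its difference of 0.98 ± 0.42 (SE; limma adjusted p = 0.0736) was near the threshold. With each of the 39 arrays left out in turn its adjusted p ran from 0.026 to 0.127. It passed in 3 of these fits, without OZ1-16 (adjusted p = 0.047), without OZ1-31 (0.0477) or without OZ2-38 (0.026). OZ2-38 is one of the 6 arrays nearer the other region, so leaving it out favours a wider difference. After blocking on scan day the log2 difference of BGLU40 was 1.11 (limma adjusted p = 0.213). BGLU16, the neighbour of BGLU27 on chromosome 3, had medians of 8.05 in OZ1 and 8.07 in OZ2, with a log2 difference of 0.09 ± 0.26 (SE; adjusted p = 0.845). Its sign turned without OZ1-23. BGLU25 had medians of 8.85 in OZ1 and 8.46 in OZ2 and a log2 difference of -0.36 ± 0.19 (SE; adjusted p = 0.158). Without the 6 arrays nearer the other region BGLU25 differed by -0.56 (limma adjusted p = 0.0176) and BGLU40 by 1.08 (adjusted p = 0.0421), gains that the selection of those arrays favours by construction. BGLU25 had the smallest spread of the 8, with SDs of 0.47 in OZ1 and 0.56 in OZ2, while the SD of BGLU47 in OZ1 was 2.03.

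**Figure D2:**
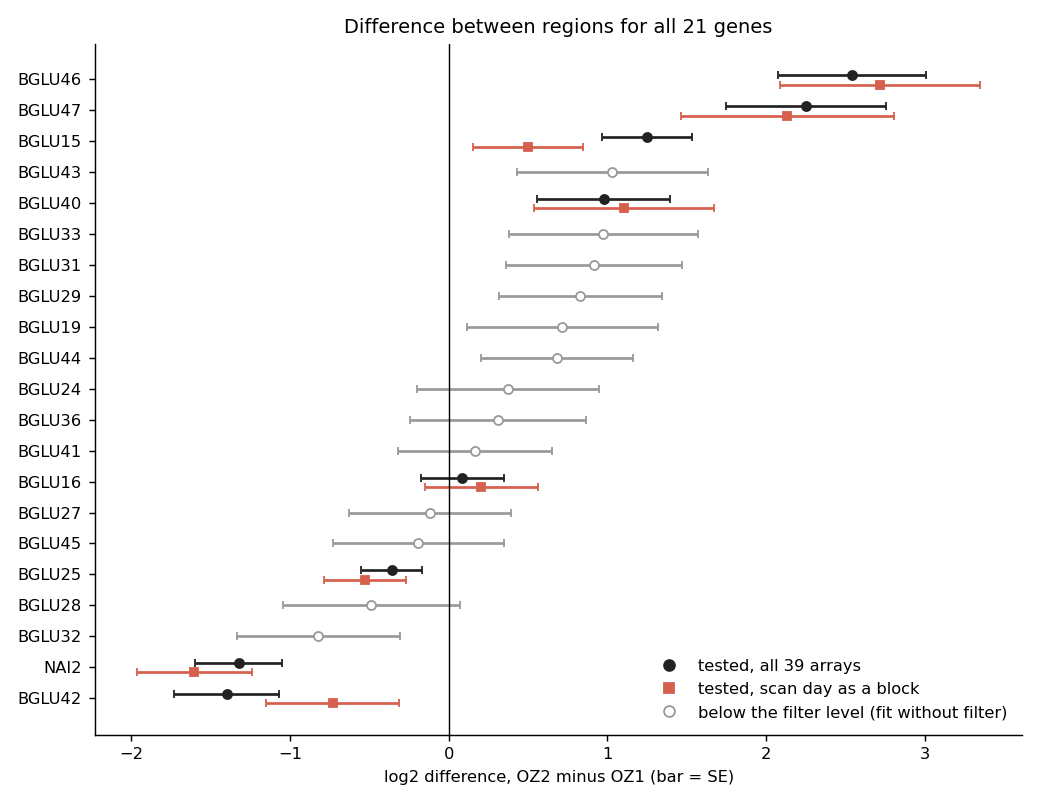
Log2 difference, OZ2 minus OZ1, with its SE (horizontal axis) for the 21 genes; black circles are the fit to all 39 arrays and red squares the fit blocked on scan day for the 8 genes above the filter level, and open circles are the 13 other genes in the fit without a filter. With the block BGLU15 moved from 1.25 to 0.50 and BGLU42 from -1.40 to -0.73, while BGLU46, BGLU47 and NAI2 were at 2.72, 2.14 and -1.60. The blocked differences equal those of scan day 1 alone.

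The 13 genes below the filter level were BGLU19, BGLU24, BGLU27, BGLU28, BGLU29, BGLU31, BGLU32, BGLU33, BGLU36, BGLU41, BGLU43, BGLU44 and BGLU45. Their means over the 39 arrays ran from 3.57 for BGLU43 to 5.51 for BGLU41, and their SDs within a region from 1.17 to 2.33. Single arrays did reach higher values, and each of the 13 was above the filter level in 5 to 20 of the 39 arrays. In the fit without a filter their log2 differences ran from -0.82 for BGLU32 to 1.03 for BGLU43, 9 of them with the higher mean in OZ2 and 4 in OZ1. None of the 13 passed (limma adjusted p from 0.275 to 0.928), and 0 had an unadjusted p under 0.05. BGLU33, which frees abscisic acid, had means of 3.84 ± 2.19 (SD, n = 20) in OZ1 and 4.82 ± 1.63 (SD, n = 19) in OZ2. BGLU19 and BGLU24 had log2 differences of 0.72 ± 0.60 and 0.37 ± 0.57 (SE). Of the 21 genes 11 lie beside another of them on a chromosome, in 5 groups, and 3 of these 11 were above the filter level, BGLU15, BGLU16 and BGLU46. In the groups BGLU31 with BGLU32 and BGLU43 with BGLU44 no gene was above it.

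In the titles 14 numbers occur in both regions, and the labels do not say what they stand for. NAI2 was lower in OZ2 than in OZ1 for all 14 numbers, with log2 differences, OZ2 minus OZ1, from -4.36 to -0.20. BGLU40 was higher in OZ2 for 13 of 14, BGLU15 and BGLU47 for 12, and BGLU46 for 11, while BGLU42 and BGLU25 were lower in OZ2 for 11 of 14. BGLU16 was higher in OZ2 for 8 of 14. For BGLU46 the median difference over the numbers was 3.66 on the log2 scale, and it ran from -1.71 to 6.44. Numbers 13, 14, 15, 19 and 20 set an OZ1 array of scan day 2 against an OZ2 array of day 3. Region and scan day cannot be told apart for them, and for each of them BGLU15 was higher and BGLU42 lower in OZ2. The other numbers were scanned on day 1 in both regions. Among those, BGLU15 was lower in OZ2 for numbers 9 and 10, and BGLU42 was higher there for numbers 6, 9 and 10.

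**Figure D3:**
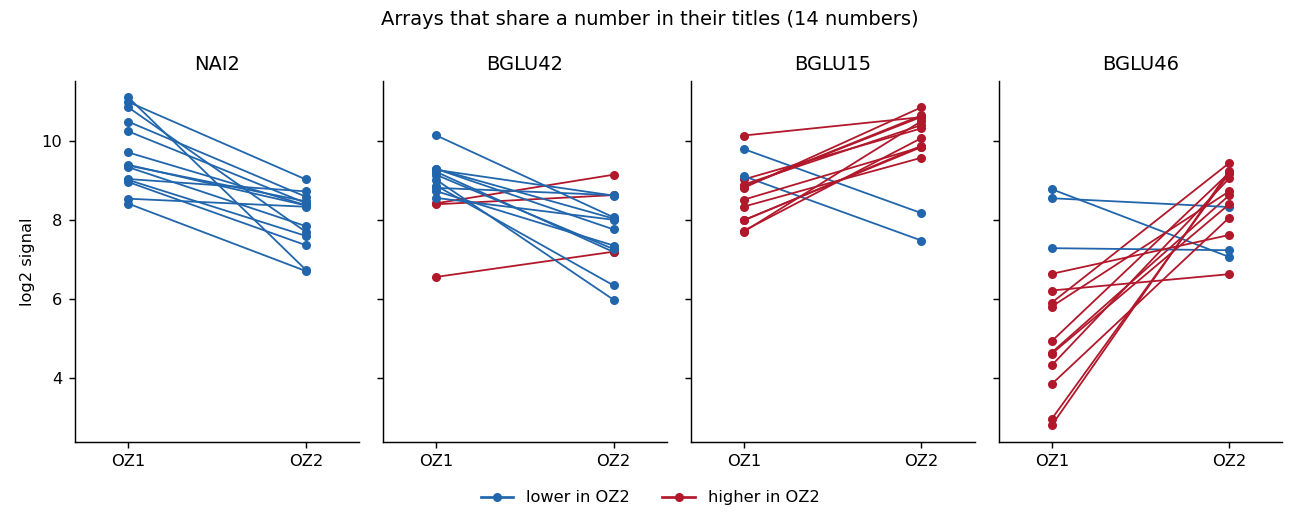
Log2 signal (vertical axis) of NAI2, BGLU42, BGLU15 and BGLU46 in OZ1 and OZ2 for the 14 numbers found in both regions; a line joins the arrays that share a number, blue where OZ2 is lower and red where it is higher. All 14 lines of NAI2 and 11 of BGLU42 slope down, while 12 of BGLU15 and 11 of BGLU46 slope up. The lines of numbers 13, 14, 15, 19 and 20 join arrays of different scan days.

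The second comparison asked whether the genes varied with the submitters' order. With 3 harmonics of the place in the order and the region as a term, none of the 8 genes passed (limma, F-test, adjusted p from 0.0798 to 0.995), where 0.411% of all tested probe sets did. At an unadjusted p under 0.05 there were 3 genes, BGLU46, BGLU40 and NAI2, beside 13.6% of all tested probe sets. The median fitted range, the highest minus the lowest fitted log2 value, was 1.92 for the 8 genes and 1.85 for all tested probe sets.

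BGLU46 had a fitted range of 5.36 (limma unadjusted p = 0.000656, adjusted p = 0.0798) with its highest fitted value, apart from the region, at place 9. In OZ1 its log2 signals were 4.65, 2.97 and 4.32 at the first 3 places. They reached 8.55 at place 7 and 8.78 at place 11, and were 2.81, 5.91, 2.14 and 3.85 at places 17 to 20. The highest OZ1 arrays thus lay between places 7 and 14, where OZ1-13 at 5.81 and OZ1-32 at 4.62 were lower than their neighbours, and most arrays at either end were low. Within OZ1 a natural spline with 3 degrees of freedom gave BGLU46 a fitted range of 4.49 (unadjusted p = 0.00222, adjusted p = 0.179), and within OZ2 one of 1.27 (adjusted p = 0.873). BGLU46 passed with 2 harmonics (adjusted p = 0.0215) and with no filter (0.0364). It did not pass with 4 harmonics (0.141), with quantile normalization (0.323), without the 6 arrays (0.234) or without 11 arrays with more than 5% of their signal on the hybridisation controls (0.853).

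NAI2 ran the other way in OZ1. Its log2 signals were 10.85, 10.99 and 10.24 at the first 3 places, 8.65, 8.41, 9.01, 8.88 and 8.26 at places 10 to 14, 10.49 and 9.71 at places 15 and 16, and 8.96, 11.10, 9.98 and 9.40 at places 17 to 20. The high value at place 15 came directly after the lowest, and the last 4 places were uneven. The fitted range was 1.93 over the whole order (limma unadjusted p = 0.0345, adjusted p = 0.315), 2.31 within OZ1 (unadjusted p = 0.00233, adjusted p = 0.181) and 0.98 within OZ2 (adjusted p = 0.898). BGLU40 had a fitted range of 3.72 (unadjusted p = 0.00921, adjusted p = 0.189). Within OZ2 its range was 2.87 (unadjusted p = 0.0188, adjusted p = 0.801), with log2 signals of 8.22, 7.84 and 7.65 at places 31 to 33 and of 5.09, 5.94 and 3.76 at places 36 to 38. Within OZ1 0 of the 8 genes passed and 2 had an unadjusted p under 0.05, beside 0.147% and 11.6% of all tested probe sets. Within OZ2 0 passed and 1 had an unadjusted p under 0.05, beside 0% and 5.66%.

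Among the other genes of the lists none passed along the order. PYK10 had a fitted range of 2.47 (limma unadjusted p = 0.00028, adjusted p = 0.0536), NAI1 one of 3.29 (adjusted p = 0.221) and F6'H1 one of 4.20 (adjusted p = 0.267).

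The hybridisation controls, transcripts of bacterial and bacteriophage genes that measure no plant gene, were also highest in the middle of the OZ1 stretch. The mean log2 signal of the 18 control probe sets was 10.74 and 11.11 at places 1 and 2, 14.54 at places 11 and 14, and 10.75, 11.28 and 11.06 at places 18 to 20. They held 0.836% to 17.3% of the summed signal of an array. With the region as a term BGLU46 rose by 0.74 ± 0.16 (SE) in log2 signal for each log2 unit of the controls (limma adjusted p = 0.000791), and NAI2 changed by -0.41 ± 0.10 (adjusted p = 0.00194). None of the other 6 genes passed, BGLU47 having a slope of 0.51 (adjusted p = 0.052). Over all tested probe sets 12% rose and 13.2% fell with the controls. With the control level as a term in the order fit, the fitted ranges were 4.18 for BGLU46 (unadjusted p = 0.108), 0.93 for NAI2 (0.884) and 3.63 for BGLU40 (0.0413), each with a limma adjusted p of 1. In the comparison of the regions the control level as a term left a log2 difference of 2.18 for BGLU46 (adjusted p = 6.75e-05) and of -1.12 for NAI2 (adjusted p = 0.000416).

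**Figure D4:**
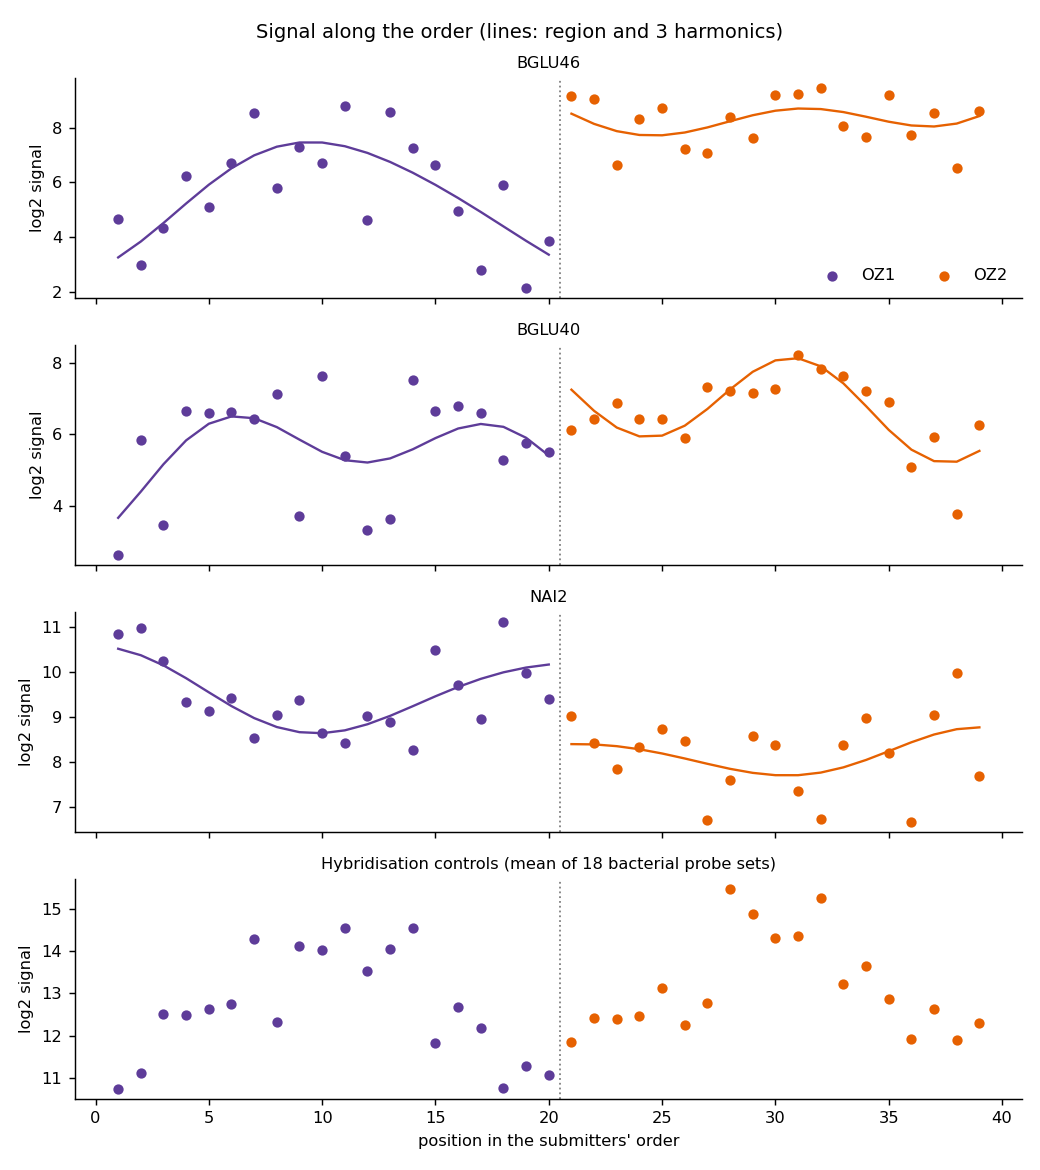
Log2 signal (vertical axes, each panel with its own range) of BGLU46, BGLU40, NAI2 and the mean of the 18 hybridisation control probe sets against the place in the submitters' order (horizontal axis, 1 to 39); purple points are OZ1, orange points OZ2, and lines, drawn for the 3 genes, are the fit of the region and 3 harmonics. In OZ1 BGLU46 and the controls were highest near the middle places (8.78 and 14.54 at place 11) where NAI2 was low (8.41).

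After each gene was centred on its region means, the genes most like NAI2 over the 39 arrays, among 7526 named genes above the filter level, were DRT100 (Pearson r = 0.73), AT1G02816 (0.70) and AT5G20950 (0.70). Those most like BGLU46 were AT1G32740 (r = 0.75), AT2G45040 (0.73) and AT2G21560 (0.71). These values describe likeness over arrays that differed in control level and scan day, neither of which was taken out. The genes were picked as the highest of many, so no p-value is given.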

How the data were processed

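Total RNA was labelled with biotin and hybridised to Affymetrix ATH1 arrays, 1 sample per array, 39 in all. The authors deposited 1 intensity value per probe set and array. The submitters' processing notes name MAS5, without a version. The trimmed mean was 250.0 on every array, so the deposited values shared that mean. The median signal was not shared. It ran from 54.4 on OZ1-9, with a control level of 10.75, to 164.0 on OZ2-32, with one of 15.45. What this shift does to genes of low signal was not tested. Scan days came from the instrument records, text of unit other that the authors deposited. Precision is limited by the number of arrays. No detection calls were used.

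The values were taken to log2 with no further normalization. Of 22810 probe sets 64 controls were left out, and 13627 with a mean log2 above the 40th percentile were tested. Models were fitted with lmFit and trended eBayes (limma 3.58.1, R 4.3.3), with two-sided tests of the regions, F-tests along the order and Benjamini-Hochberg adjustment, and were tested on simulated data. The simulated noise was independent between probe sets and held no effect of scan day or control level. It therefore does not show how the models behave where these act. Loci came from TAIR10.1 by Entrez number, with all 21 genes matched. No source names the array's genome build, so no coordinates are printed. The genes, lists and alternatives were chosen with earlier results of these data known. Named are all 21 genes, from each list the 2 with the smallest adjusted p, and the 3 genes most like NAI2 and BGLU46. NAI1, JAL33, UGT72E1 and UGT72E3 are named to complete a count. Alternatives were quantile normalization, log2(value + 16), other filters, array weights, robust eBayes, scan day, title number and control level as terms, other forms of the order, and fits without groups of arrays or without each of the 39 in turn. The slope on the control level, and the block without 6 arrays, were added after seeing the data.

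The check used did not show that the titles' numbers pair the arrays. After subtracting the region means, 3 of 14 same-numbered pairs correlated over 0.1 (median 0.028). Scan day and control level were not taken out, so the check does not decide whether the numbers pair the arrays. The p-values measure the spread between arrays, since separate roots per array are not stated sample by sample.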

Additional observations from a re-analysis of the deposited data

How the results depend on the processing

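The numbers of genes higher (3) and lower (2) in OZ2 stayed within 1.5 times under most alternatives. With the scan day as a block 1 was lower, and on scan day 1 alone 1 was higher and 1 lower. Leaving out each array in turn gave 3 to 4 higher and 2 lower. With the title number as a fixed replicate block over the shared numbers 4 genes were higher and 2 lower, BGLU40 then passing with a log2 difference of 1.55 (adjusted p = 0.0098). With it as a random block 3 were higher and 2 lower. Of the 14 same-numbered pairs 2 correlated best with their own number. With the 60th percentile filter 2 were higher and 2 lower, BGLU40 and BGLU47 not being tested. The difference of BGLU16, never called, was -0.018 under quantile normalization, and -0.0010 to 0.23 with each array left out. BGLU25 passed with array weights (-0.40, adjusted p = 0.0289), which can widen a difference between the regions. Along the order 0 of 8 genes passed, against 1 with no filter, 1 with 2 harmonics and 3 with no region term, where the step between the regions enters the harmonics. With the control level, 1 gene rose and 1 fell. There 2 rose with log2(value + 16), no filter or the scan day block, and 2 fell with quantile normalization or without the 6 arrays. Within OZ1 and OZ2 the count was 0 under each alternative run. Using the mean over a gene's probe sets changed nothing, each gene having 1. The cause of the other changes was not tested. Genes near the filter level, such as BGLU46, BGLU47 and BGLU40 in OZ1, may be limited by signal over background, which was not tested.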
